A study of Mus musculus with 12 samples.

Results

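Nr1d1 (REV-ERBα), Nr1d2 (REV-ERBβ), Rora (RORα) and Thra (thyroid hormone receptor α) are nuclear receptor genes, and they were followed here in mouse liver by RNA sequencing. They were taken by gene symbol from the deposited count tables, as 4 of 38926 symbols, and all 4 were among the 14488 genes with enough reads to be tested. The livers came from 12 male mice aged 12 weeks on a 129Ola/C57BL6 background, 1 liver per library. Of these, 3 wild-type (WT) and 3 Rev-erbα-/- mice (knock-out of Nr1d1, labelled Rev KO) were killed at ZT8 (zeitgeber time, counted from lights on) and an equal number of each genotype at ZT20, in the dark phase. No mouse was given a treatment. Both genotypes share the mixed background, and the position of the deletion within Nr1d1 is not given in the sources used here. Reads on the symbol Nr1d1 therefore do not check the genotype label.

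REV-ERBα and REV-ERBβ are haem-binding repressors, and RORα is an activator, that compete for the same DNA sequence, the ROR response element (RORE). In liver, the transcription of the REV-ERB genes is driven in the day by the clock activators BMAL1 and CLOCK at E-boxes, and the REV-ERB proteins in turn hold down Arntl, which encodes BMAL1. Thra lies beside Nr1d1 on the opposite strand, so that the 3′ ends of both genes overlap, and encodes a receptor for thyroid hormone and a splice form that does not bind the hormone.

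Levels are counts relative to library size (CPM) after TMM scaling, which corrects for differences in library composition. Those of the marker and acute phase genes are relative to all reads on genes, without TMM scaling. Between 17641809 and 26060192 reads per library lay on genes, and a floor of 3 reads corresponded to 0.115 to 0.170 CPM. In 2 of the WT livers at ZT8, replicates 2 and 3, the summed level of the acute phase genes (Orm2, Saa1 and Saa2) was 10370 and 13360 CPM, against 87.0 in replicate 1 and at most 114.9 in the other 9 livers. Results that changed their call without these livers are also given without them. The hepatocyte markers summed to between 50030 and 97220 CPM in all livers, which fits the labelled tissue. Bulk RNA does not tell fewer cells of a type from less RNA per cell. The labels give separate samples, but apart from the time of killing no source states how they were spread over litters or days.

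Among the 4 genes, Nr1d1 differed most between ZT8 and ZT20. Its level was 128.7, 96.2 and 75.3 CPM in the WT livers at ZT8 and 63.0, 71.9 and 80.6 CPM in the Rev-erbα-/- livers. At ZT20 it was 2.28, 1.86 and 2.15 CPM in WT and 3.57, 2.96 and 2.09 CPM in Rev-erbα-/-, that is 42 to 49 reads and 47 to 85 reads per library. Every liver at ZT8 was far above every liver at ZT20, while the genotypes overlapped at both times. Reads were thus still counted on the targeted gene in the mutants. By qRT-PCR, the authors reported no Rev-erbα mRNA in livers of Rev-erbα-/- mice, and by immunostaining no protein at ZT8 or ZT20. The counts cover the whole symbol, while the stretch measured by qRT-PCR is not given in the sources used here. From ZT8 to ZT20 the level fell 47.7-fold in WT (log2 difference -5.58, SE 0.249, adjusted p = 8.2e-08 by edgeR's quasi-likelihood test) and 24.9-fold in Rev-erbα-/- (log2 -4.64, SE 0.235, adjusted p = 8.1e-07 by the same test). Between these 2 falls the log2 difference was 0.94 (SE 0.345, edgeR adjusted p = 0.157), not past the threshold of 0.05. The difference between genotypes was -0.48 on the log2 scale at ZT8 (SE 0.184, edgeR adjusted p = 0.143) and 0.46 at ZT20 (SE 0.292, edgeR adjusted p = 0.538), and neither passed the threshold of 0.05. The WT livers with the high acute phase levels were those with the lower Nr1d1 levels at ZT8. Without both of them, with 1 WT liver left at ZT8, the difference was -0.85 with an edgeR adjusted p of 0.0123. Without replicate 3 alone, it was -0.65 with an edgeR adjusted p of 0.0316. The part of the acute phase state in this difference was not tested.

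Nr1d2, which encodes the second REV-ERB receptor, followed the same order of time points with a smaller range. The WT livers at ZT8 held 126.6, 137.1 and 151.5 CPM, and the mutant livers 149.5, 125.3 and 122.8 CPM. At ZT20 it was 11.58, 11.54 and 14.22 CPM in WT and 35.2, 21.7 and 17.7 CPM in Rev-erbα-/-. The genotypes overlapped at ZT8 but not at ZT20, where each mutant liver was above each WT liver and replicate 1 of the mutants stood highest. The fall from ZT8 to ZT20 was 11.1-fold in WT (log2 -3.47, SE 0.235, adjusted p = 4.3e-06 by edgeR) and 5.33-fold in Rev-erbα-/- (log2 -2.41, SE 0.221, adjusted p = 8.7e-05 by edgeR). At ZT8 the genotypes differed by -0.06 on the log2 scale (SE 0.206, edgeR adjusted p = 0.896). At ZT20 Nr1d2 was 2.00-fold higher in Rev-erbα-/- (log2 1.00, SE 0.228, edgeR adjusted p = 0.0452), close to the threshold. Leaving out any 1 of the 12 livers other than the mutants' replicates 1 and 3 at ZT20 ended this call, with log2 differences of 0.66 to 1.19 over all 12 fits. Without replicate 1 the difference was 0.66, with an edgeR adjusted p of 0.011. The change of the genotype difference between the time points was 1.06 (SE 0.308, edgeR adjusted p = 0.0808), and DESeq2 gave an adjusted p of 0.00315 for it.

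**Figure D1:**
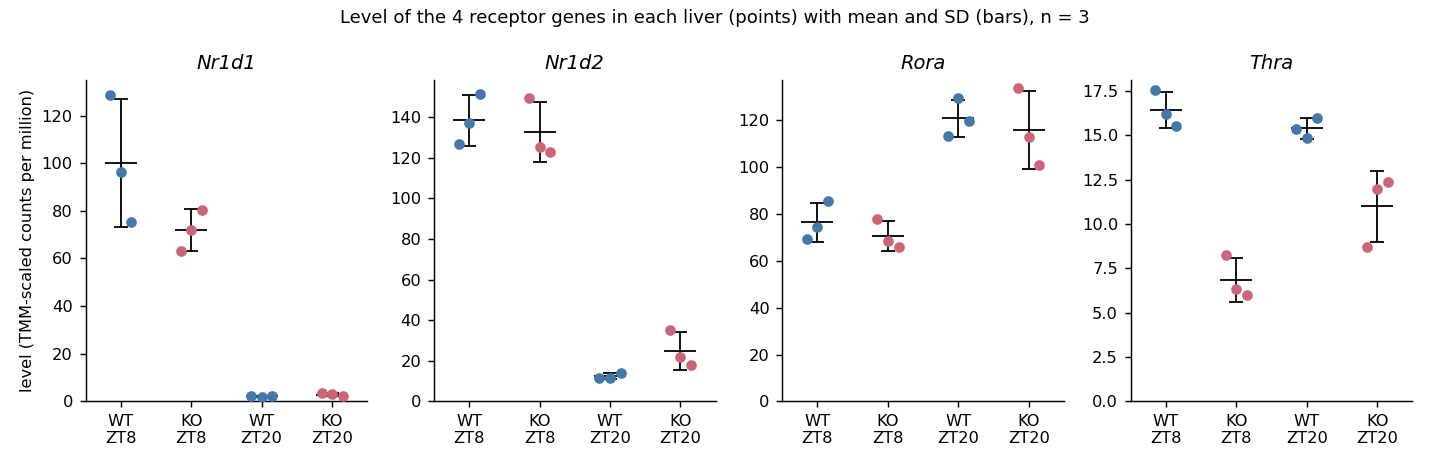
Level of Nr1d1, Nr1d2, Rora and Thra (vertical axis, TMM-scaled CPM, linear and starting at 0) in each of the 12 livers. Points are livers (blue WT, red Rev-erbα-/-), and bars are the mean and SD of 3 livers. Nr1d1 and Nr1d2 are high at ZT8 and low at ZT20 in both genotypes, Rora is higher at ZT20, and Thra is lower in the mutants at both times.

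Since Nr1d1 and Nr1d2 both fell from ZT8 to ZT20, the 250 bases before the start of each gene are shown, from RefSeq (build GRCm38.p6). They lie at chr11:98775378-98775627 for Nr1d1 and at chr14:18239107-18239356 for Nr1d2, both on the minus strand, and are written 5′ to 3′ with the RORE core AGGTCA in capitals.
Nr1d1: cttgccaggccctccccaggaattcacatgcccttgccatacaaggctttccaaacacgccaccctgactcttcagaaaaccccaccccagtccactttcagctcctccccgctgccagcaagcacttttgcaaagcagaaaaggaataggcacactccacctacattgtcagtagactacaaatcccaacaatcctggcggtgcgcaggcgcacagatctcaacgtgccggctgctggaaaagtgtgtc
Nr1d2: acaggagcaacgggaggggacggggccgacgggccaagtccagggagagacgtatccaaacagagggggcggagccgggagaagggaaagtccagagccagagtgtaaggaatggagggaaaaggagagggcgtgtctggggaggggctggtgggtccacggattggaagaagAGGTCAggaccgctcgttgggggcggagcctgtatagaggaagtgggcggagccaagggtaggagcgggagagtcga
The window of Nr1d2 held 1 core, whose first base is base 174 of the window, and the windows of Nr1d1 and Rora (chr9:68653536-68653785, plus strand) held none. Among all 32851 RefSeq promoter windows of this length, 14.0% held AGGTCA on either strand, so that 1 match in 3 windows is not a property that sets these genes apart. The E-box CACGTG, searched on both strands and present in 6.02% of all windows, and the D-boxes TTATGTAA (0.819%) and TTACGTAA (0.113%) were in none of the 3 windows. These letters say nothing of sites outside the windows or of sites that differ by a base.

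Rora, the ROR gene among the 4, differed in the opposite direction between ZT8 and ZT20 and by less. At ZT8 its level was 69.4, 74.3 and 85.6 CPM in WT and 77.7, 68.3 and 65.8 CPM in Rev-erbα-/-. At ZT20 it was 113.3, 129.3 and 119.7 CPM in WT and 133.8, 113.0 and 100.7 CPM in Rev-erbα-/-. All livers at ZT20 were above all livers at ZT8, and the genotypes overlapped at both times. Rora rose 1.58-fold from ZT8 to ZT20 in WT (log2 0.66, SE 0.107, adjusted p = 0.000325 by edgeR) and 1.64-fold in Rev-erbα-/- (log2 0.71, SE 0.107, adjusted p = 0.000395 by edgeR). The genotype differences were -0.11 at ZT8 (SE 0.107, edgeR adjusted p = 0.564) and -0.06 at ZT20 (SE 0.106, edgeR adjusted p = 0.876) on the log2 scale. Leaving out replicate 3 of the mutants turned the difference at ZT20 to 0.0312. At ZT8 no single liver turned the sign, while leaving out both WT livers with high acute phase levels gave 0.0198.

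Thra showed another pattern, similar at ZT8 and ZT20 in WT and lower in the mutants. Levels between these times were not sampled. In WT, its level was 17.5, 16.2 and 15.6 CPM at ZT8 and 15.4, 14.9 and 16.0 CPM at ZT20. In Rev-erbα-/- it was 8.26, 6.33 and 5.97 CPM at ZT8 and 8.69, 12.0 and 12.4 CPM at ZT20. These values rest on 306 to 441 reads per WT liver and 114 to 159 reads per mutant liver at ZT8. Each mutant liver was below each WT liver of its time point, and the mutants' replicate 1 at ZT20 lay close to the highest mutant at ZT8. At ZT8 Thra was 2.40-fold lower in Rev-erbα-/- (log2 -1.26, SE 0.142, adjusted p = 6.2e-05 by edgeR), a call kept in all 19 alternative fits with log2 differences of -1.42 to -1.17. At ZT20 the difference was -0.49 (SE 0.135, edgeR adjusted p = 0.0647), not past the threshold, while DESeq2 gave an adjusted p of 0.033. The genotype difference changed by 0.78 between ZT8 and ZT20 (SE 0.196, edgeR adjusted p = 0.0285). This call was lost without replicate 2 of any of the 4 groups, without replicate 3 of the mutants at either time or without replicate 1 of WT at ZT20, and the log2 value was 0.68 to 0.94 over the 12 fits that left out 1 liver. Without the 2 WT livers with high acute phase levels it was 0.88, with an edgeR adjusted p of 0.0675. Within WT, ZT20 and ZT8 differed by -0.09 (SE 0.133, edgeR adjusted p = 0.651). Within Rev-erbα-/-, Thra rose 1.60-fold from ZT8 to ZT20 (log2 0.68, SE 0.143, edgeR adjusted p = 0.00435).

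The summed levels of the marker lists of other liver cells overlapped between the genotypes at ZT8, while the levels of Thra did not. The summed level of 3 stellate cell markers was 221.0 to 263.7 CPM in WT and 214.8 to 249.7 in Rev-erbα-/-, and that of 4 sinusoidal endothelial markers was 220.3 to 227.4 and 204.4 to 225.1 CPM. The 4 Kupffer cell markers in the table summed to 250.6 to 395.8 CPM in WT and 221.9 to 263.8 in Rev-erbα-/-, and the 3 cholangiocyte markers to at most 2.76 CPM in either. The 3 lymphoid markers summed to 10.77 to 14.26 and 9.75 to 13.88 CPM, and the 3 erythroid markers to 111.5 to 246.6 and 199.9 to 259.6 CPM. Among the single markers of these lists, the Kupffer cell marker Vsig4 did not overlap (31.28 to 48.51 CPM in WT, 24.98 to 30.71 in Rev-erbα-/-). The stellate cell marker Reln did not either (79.51 to 86.35 and 69.04 to 74.93 CPM), and the other markers overlapped. Of all tested genes, 25.6% did not overlap at ZT8 on the TMM scale. No marker was at 0 in all 12 livers, and the part of cell composition in the difference of Thra was not tested.

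**Figure D2:**
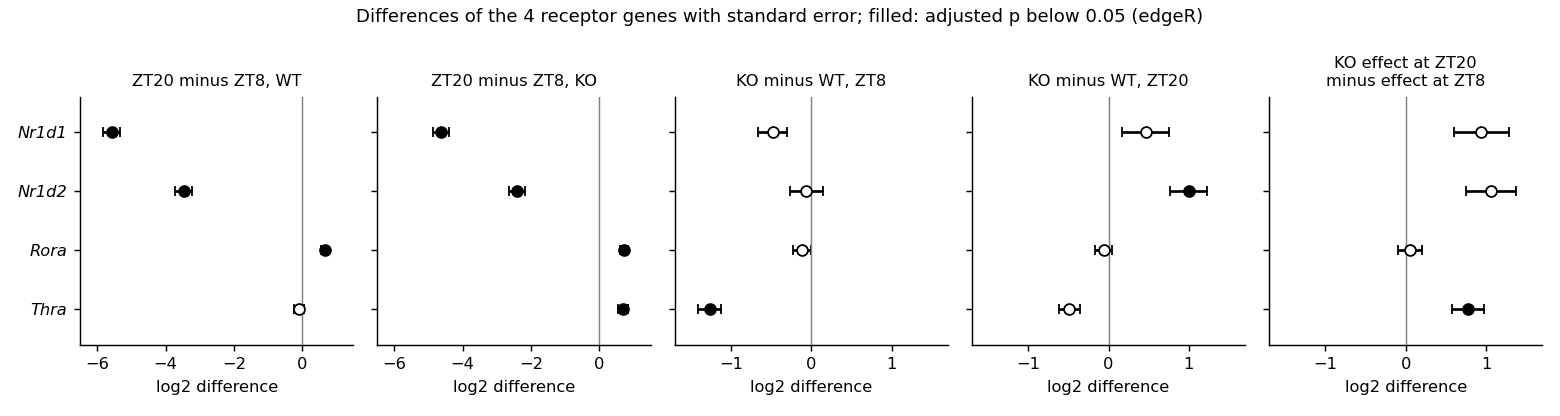
Log2 differences of the 4 genes (points) with their standard errors (bars) in the 5 comparisons, with a wider scale for the time comparisons than for the others. Filled points passed an adjusted p of 0.05 in edgeR. At ZT8 the filled point is Thra at -1.26, and at ZT20 it is Nr1d2 at 1.00.

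Counted over the 4 genes, 1 passed the threshold for genotype at ZT8 (Thra), where 8.45% of all tested genes did, and 1 at ZT20 (Nr1d2), where 3.63% did, with 2.09% higher and 1.54% lower. The change of the genotype difference between the times was called for 1 of 4 (Thra), against 5.88% of all genes in either direction and 2.83% upward. Between ZT8 and ZT20, 3 of 4 were called in WT and 4 of 4 in Rev-erbα-/-, against 27.7% and 17.5% of all genes. Upward calls in Rev-erbα-/-, as for Rora and Thra, made up 8.79% of all genes. The time points did not overlap for 3 of 4 genes in WT and 4 of 4 in Rev-erbα-/-, against 42.3% and 35% of all genes. The genotypes did not overlap at ZT8 for Thra, as for 25.6% of all genes, nor at ZT20 for Nr1d2 and Thra, as for 22.5% of all genes. With 3 livers per group, an exact two-sided permutation test of a single gene cannot give a p below 0.1, and it gave 0.1 for Thra at both times. The comparisons of a genotype at ZT8 and of a time within that genotype share livers, so that their values are not independent of each other. Counts of list genes at an unadjusted p below 0.05 have no share of all genes beside them. They are not read as results. By edgeR at ZT8, Nr1d1 at an unadjusted p of 0.0249 ranked 2518 of 14488 genes by p.

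The Nr1d1 and Thra genes needed a closer look at their shared sequence. In the GENCODE annotation of mm10, Nr1d1 lies at chr11:98767932-98775333 on the minus strand and Thra at chr11:98740638-98769006 on the plus strand. Their bodies overlap over 1075 bases, and their exons over 263 bases in 1 run (chr11:98768157-98768419), which are coding in Thra throughout and coding in Nr1d1 over 197 bases. The run made up 8.55% of the exon bases of Nr1d1 and 5.70% of those of Thra. Of the annotated Thra transcripts, Thra-201 ends across the run with all 263 bases, Thra-203 holds 130 of them and Thra-202 none. The reads were counted without regard to strand and a read that touched exons of both genes was set aside, so the run adds to neither gene, and reads of 1 gene that reach the other gene's own exon bases beyond the run cannot be told from that gene's. A fall of Nr1d1 by 47.7-fold in WT went with a log2 difference of -0.09 in Thra. In Rev-erbα-/-, Nr1d1 fell 24.9-fold and Thra rose 1.60-fold. The part of such reads in the level of Thra was not tested. Per kilobase of exon sequence that no other gene shares, the level of Nr1d1 was 7.49 to 11.3 times that of Thra in the WT livers at ZT8 and 11.8 to 20.8 times in the mutants. At ZT20, it was 0.193 to 0.230 times that of Thra in WT and 0.261 to 0.635 times in Rev-erbα-/-. The order of this pair therefore turned between the times in every liver group.

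Of the genes around the pair, those called between the genotypes at ZT8 differed by less than Thra. Within 250000 bases of it, 24 further annotated genes were in the count table and 11 were tested. At ZT8, edgeR called none of the 11 higher and 2 lower in Rev-erbα-/-, Wipf2, an actin regulator, by 0.36 (log2, edgeR adjusted p = 0.0188) and Msl1, of a histone acetyltransferase complex, by 0.22 (edgeR adjusted p = 0.0457), against 4.04% of all tested genes called lower. The median of the 11 was -0.08 on the log2 scale, beside 0.00 for all genes. DESeq2 also called Ormdl3, a regulator of sphingolipid synthesis, higher in the mutants (log2 0.24, edgeR adjusted p = 0.0521), and 5 of the 11 had an unadjusted p below 0.05 in edgeR. Without the WT livers with high acute phase levels neither edgeR call remained, and without replicate 1 of the mutants at ZT20 that of Wipf2 did. At ZT20 edgeR and DESeq2 called none of the 11, against 3.63% of all genes in edgeR, and 4 had an unadjusted p below 0.05. Gm12359, at 0.612 CPM or less on average at ZT8, differed by -0.87 at ZT8 and -1.16 at ZT20 and was not called (edgeR adjusted p = 0.293 and 0.201). Rara, the retinoic acid receptor gene on the far side of Nr1d1, had a level of 19.9 CPM in WT and 16.1 in Rev-erbα-/- at ZT8 (log2 -0.30, edgeR adjusted p = 0.139). Med24, the tested neighbour that starts nearest to Thra, differed by -0.09 at ZT8 (edgeR adjusted p = 0.617).

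**Figure D3:**
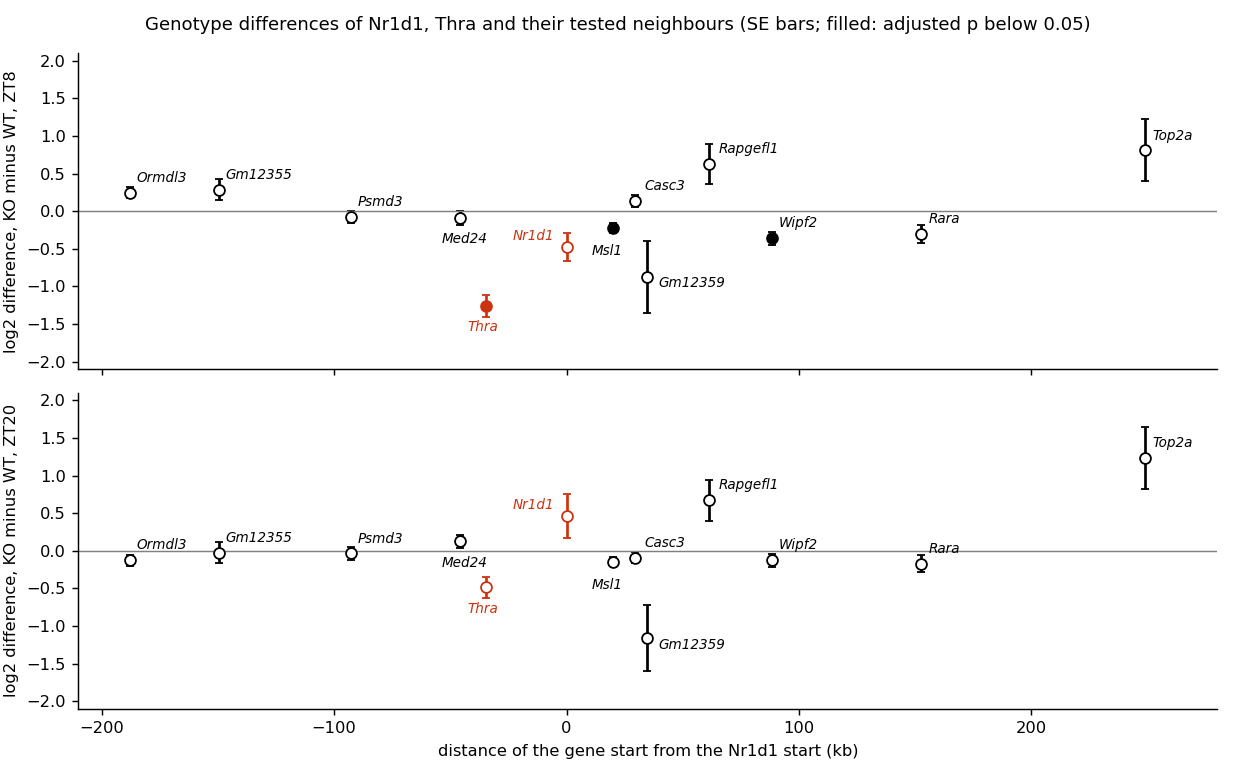
Log2 difference between Rev-erbα-/- and WT at ZT8 (top) and ZT20 (bottom) for Nr1d1, Thra (red) and the 11 tested neighbours (black), against the distance of each gene's start from the Nr1d1 start in kilobases. Bars are standard errors, and filled points passed an adjusted p of 0.05. At ZT8 Thra is the lowest point, at -1.26, and the filled neighbours Msl1 and Wipf2 lie at -0.22 and -0.36.

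The receptors that are closest in sequence or position were read in the same way, as a list of 5 genes of which 4 were tested. Rorb, the ROR gene of brain and retina, had no read in any library. Of the 4 tested genes, edgeR called 1 for genotype at ZT20, Thrb, the other thyroid hormone receptor gene, and none at ZT8. Over all tested genes, edgeR called 3.63% at ZT20 and 8.45% at ZT8. Thra was called at ZT8, and its difference at ZT20 was -0.49 on the log2 scale (edgeR adjusted p = 0.0647). The mean level of Thrb was 55.6 ± 4.51 CPM in WT and 57.6 ± 4.88 in the mutants at ZT8. At ZT20 it was 86.0 ± 2.74 CPM in WT and 65.8 ± 5.16 in the mutants (SD, n = 3). Thrb was lower in Rev-erbα-/- at ZT20 (log2 -0.39, SE 0.0824, edgeR adjusted p = 0.0156). The change of its genotype difference between the times was -0.43 (edgeR adjusted p = 0.0402), opposite in sign to that of Thra. Over all tested genes, 3.05% were called downward for this change. Without the WT livers with high acute phase levels, the call for that change did not remain, while the call at ZT20 did. Rara, Rarb and Rarg, which encode retinoic acid receptors, were not called by edgeR in any comparison.

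To compare levels between genes, CPM were divided by the kilobases of exon that no other gene shares, over all annotated exons whether liver uses them or not. In WT at ZT8, Nr1d1 stood at 35.6 ± 9.56 CPM per kb and Nr1d2 at 25.6 ± 2.30, and their ranges overlapped. Rora at 5.89 ± 0.639 and Thra at 3.78 ± 0.234 followed below, each apart from its neighbours in this order. In WT at ZT20 the order was Rora at 9.30 ± 0.620, Thra at 3.54 ± 0.133, Nr1d2 at 2.30 ± 0.284 and Nr1d1 at 0.744 ± 0.0767 CPM per kb, with no overlap between neighbours. In Rev-erbα-/- at ZT8, Nr1d1 at 25.5 ± 3.12 and Nr1d2 at 24.5 ± 2.73 CPM per kb overlapped, with Rora at 5.44 ± 0.485 and Thra at 1.58 ± 0.282 below them. In Rev-erbα-/- at ZT20, the order was Rora at 8.92 ± 1.29, Nr1d2 at 4.60 ± 1.69, Thra at 2.53 ± 0.463 and Nr1d1 at 1.02 ± 0.264 CPM per kb (all SD, n = 3), again with no overlap between neighbours. Nr1d2 and Thra thus stood in the other order than in WT at that time.

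Summed per length, the transcripts of Nr1d1 and Nr1d2 fell from 61.1 ± 7.32 CPM per kb at ZT8 to 3.05 ± 0.310 at ZT20 in WT, and from 50.0 ± 1.30 to 5.62 ± 1.94 in Rev-erbα-/-. These sums count transcripts and not receptor, since the mutants' Nr1d1 reads are included. Nr1d1 made up 48.9% to 66.1% of the sum in the WT livers at ZT8 and 22.5% to 27.4% at ZT20, and 44.7% to 55.8% and 16.3% to 20.7% in the mutants. Rora, set against this sum, stood at 0.0773 to 0.1203 times its level in WT and at 0.0987 to 0.1196 times in Rev-erbα-/- at ZT8, with overlapping ranges. At ZT20 the ratio was 2.95, 3.56 and 2.72 in WT and 1.33, 1.72 and 1.93 among the mutants, which did not overlap. No test was made of this ratio.

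**Figure D4:**
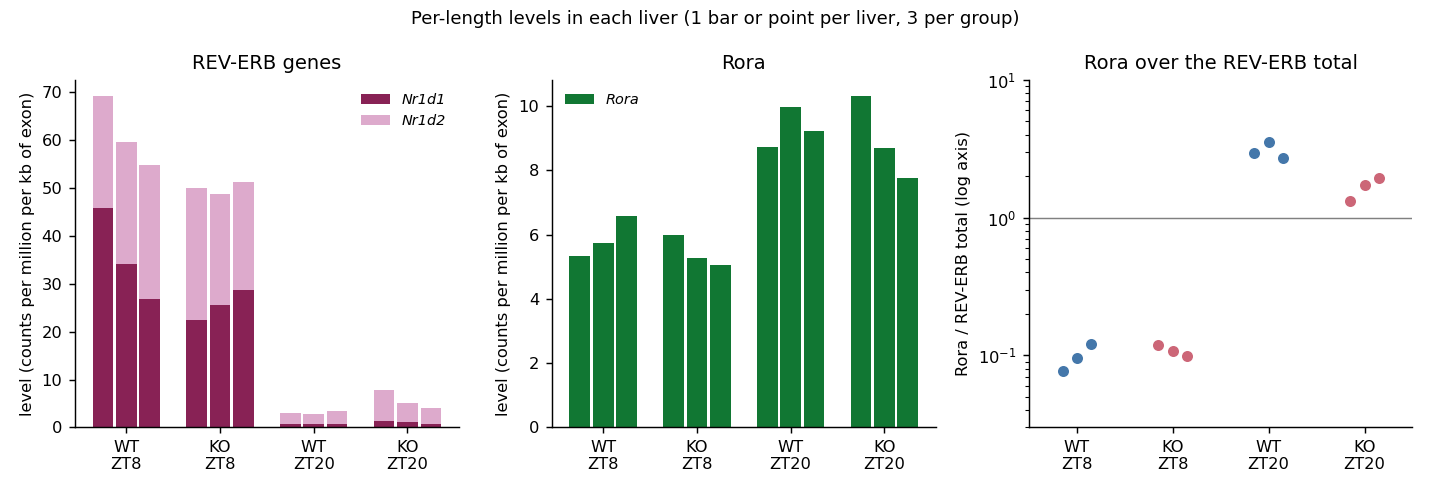
Per-length levels (CPM per kb of exon) of the REV-ERB genes (stacked) and of Rora as bars, 1 bar per liver, and the ratio of Rora to the REV-ERB sum on a log axis, 1 point per liver (blue WT, red Rev-erbα-/-). The ratio is below 1 in all livers at ZT8 and above 1 in all livers at ZT20.

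The genes that REV-ERB and ROR receptors are known to regulate through ROREs were read as a list, of which 6 are described here. At ZT8 these 6 were called higher in Rev-erbα-/-, beside 4.4% of all tested genes. Their median was 2.15 on the log2 scale, and 0.00 for all genes. Arntl rose by 5.18, Nfil3, a repressor of D-box genes, by 2.29, Cry1, a clock repressor, by 2.00, Insig2, a regulator of sterol synthesis, by 1.58, and Clock by 1.32 (log2, edgeR adjusted p at most 3.9e-05). Npas2, which can replace CLOCK, was also called higher but lay under the floor of 3 reads in each WT liver. At ZT20, edgeR and DESeq2 called none of the 6, against 3.63% of all genes in edgeR. Of the 6, 2 had an unadjusted p below 0.05, and the median was -0.07. The genotype difference of the 6 changed between the times, each downward, against 3.05% of all genes. Without the WT livers with high acute phase levels, 5 of the 6 were called at ZT8 (Arntl, Clock, Cry1, Nfil3 and Insig2) and these 5 also for the change. In WT, these 6 rose from ZT8 to ZT20, as did Rora and against the fall of Nr1d1 and Nr1d2, where 13.8% of all genes rose. In Rev-erbα-/-, 4 of the 6 rose (Arntl, Npas2, Cry1 and Insig2), Nfil3 fell by 0.26 (log2, edgeR adjusted p = 0.0164) and Clock differed by -0.06 (edgeR adjusted p = 0.695).

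The clock genes driven through E-boxes, as Nr1d1 and Nr1d2 are, were a list of 10, of which 9 were tested under the listed symbols. In the genotype comparisons at ZT8 and ZT20 edgeR called none of the 9, against 8.45% and 3.63% of all genes. At an unadjusted p below 0.05 stood 4 and 2 of the 9, and DESeq2 called 1 at each time, Per1 and Cry2. The medians of the 9 were -0.19 and -0.11 on the log2 scale. Between the times, 6 of the 9 fell in each genotype by ZT20, against 13.9% of all genes in WT and 8.67% in Rev-erbα-/-. Without the WT livers with high acute phase levels 5 fell in each genotype, and without replicate 1 of the mutants at ZT20 5 fell in Rev-erbα-/-, with Per1 the gene lost in each case. Dbp, a D-box activator, fell by 5.73 in WT and by 5.88 in Rev-erbα-/-, and Bhlhe41, a repressor at E-boxes, differed by -3.06 and -3.04 between the times. The fall of Nr1d1 and Nr1d2 between the times was thus shared by part of this list, and a genotype call at ZT20 in edgeR was made for Nr1d2 and for none of the list. A test of the difference between Nr1d2 and the list was not made. The tenth gene, Ciart, stands in the count table under its older symbol Gm129, with mean levels of 33.0 and 34.4 CPM at ZT8 and 1.61 and 2.05 CPM at ZT20 in WT and Rev-erbα-/-.

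**Figure D5:**
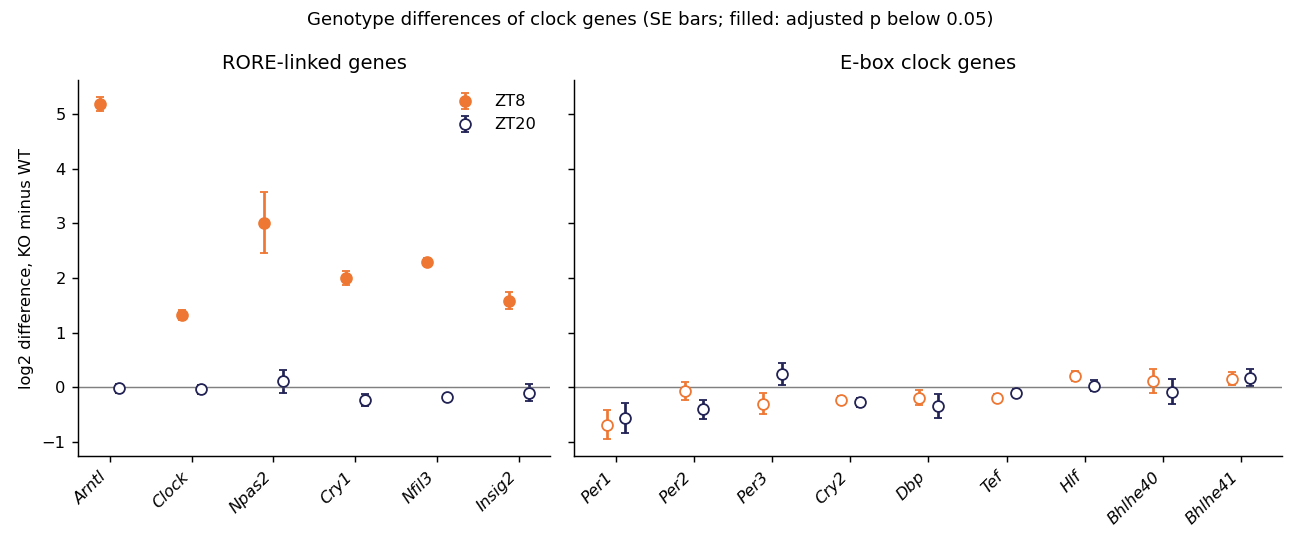
Log2 difference between Rev-erbα-/- and WT at ZT8 (orange) and ZT20 (dark blue) for 6 RORE-linked and the 9 tested E-box clock genes, with standard errors. Filled points passed an adjusted p of 0.05. At ZT8 the RORE-linked genes are filled, from 1.32 for Clock to 5.18 for Arntl, and no point is filled at ZT20 or among the E-box genes.

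Genes whose products act with these receptors were read as lists in the same way. Of 6 genes of the NCoR corepressor complex, through which REV-ERB receptors repress, and of 6 genes that control REV-ERB protein turnover, edgeR and DESeq2 called none at either time. Over all tested genes, edgeR called 8.45% at ZT8 and 3.63% at ZT20. At an unadjusted p below 0.05, none of either list stood at ZT8 and 1 of each at ZT20 (Gps2 and Gsk3b). Of 5 coactivators of ROR receptors, 2 were lower in Rev-erbα-/- at ZT8, Ppargc1a by 0.71 (log2, edgeR adjusted p = 0.0053) and Crebbp by 0.28 (edgeR adjusted p = 0.0486), against 4.04% of all genes called lower. Without the WT livers with high acute phase levels edgeR called 0 of the 5 at ZT8, and without replicate 1 of the mutants at ZT20 it called Ppargc1a. At ZT20 both tools called none of the 5, against 3.63% of all genes in edgeR, and 1 had an unadjusted p below 0.05. For Thra, 6 genes for partners of thyroid hormone receptors and for hormone transport and conversion, and 5 genes that respond to thyroid hormone, were read. In edgeR none of either list was called for genotype at either time, against 8.45% of all genes at ZT8 and 3.63% at ZT20. DESeq2 called Rxra at ZT8 and Dio1 at ZT20. At ZT8, 2 of the 6 and none of the 5 had an unadjusted p below 0.05, and at ZT20 it was 1 of each, Dio1, which is in both lists. Dio1, the deiodinase that activates thyroid hormone in liver, stood at 175.7 ± 30.8 CPM in WT and 65.5 ± 8.01 in Rev-erbα-/- at ZT20 (SD, n = 3, log2 -1.42, edgeR adjusted p = 0.0803). Without the WT livers with high acute phase levels edgeR called it lower at ZT20 and called the change of its genotype difference between the times. The medians of the hormone-responsive genes were 0.39 at ZT8 and -0.12 at ZT20 on the log2 scale.

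The genes whose patterns over the 12 livers were most like those of the 4 receptors were ranked by the root mean square of the difference in log2 level, after centring each gene, over 14484 genes. For Nr1d1 these were Dbp (0.509), Gm129 (0.630) and E030030I06Rik (0.971), the last listed at 0 in all livers at ZT20. For Nr1d2 they were Ces2b (0.381), Bhlhe41 (0.383) and Ccne1 (0.532). For Rora they were Ssr1 (0.0862), Pter (0.0925) and Dnajc3 (0.104), and for Thra 4930523C07Rik (0.225), Slc16a7 (0.234) and Ak4 (0.240). The closest pattern to Nr1d1 was thus that of an E-box gene. Among the 4 receptors themselves, the most alike pair by this measure was Rora and Thra (0.529), then Nr1d1 and Nr1d2 (1.11), and the least alike was Nr1d1 and Rora (2.89). The measure grows with the range of a gene, and Rora and Thra are genes of small range. Between the genotypes, 4930523C07Rik, Slc16a7 and Ak4, an adenylate kinase, differed by -0.90, -0.88 and -1.14 at ZT8 (log2). At ZT20 they differed by -0.27, -0.56 and -0.21. These 3 genes were chosen by their likeness to Thra in the same livers, so a lower level at ZT8 is not a separate result.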

How the data were processed

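The authors sequenced poly(A) RNA of 12 livers, aligned it to mm10 (TopHat) and used HTSeq-count for unique alignments per symbol (union mode, no strand, alignment quality of at least 10). They deposited raw counts for 38926 symbols, without normalization or pooling. Reads touching exons of more than 1 gene, 3.08% to 3.62% of uniquely mapped reads, were dropped from all of them. The annotation release is not given in the sources used here.

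From these counts, 14488 genes passed filterByExpr. Library sizes were TMM-scaled, 4 group means over 12 samples were fitted with edgeR 4.0.16 (R 4.3.3; robust glmQLFit, glmQLFTest), and p-values were adjusted by Benjamini-Hochberg over all tested genes within a contrast, with a threshold of 0.05. Alternatives were DESeq2 1.42.0, its size factors, 2 other filters, 6-sample fits, a replicate block and leaving out libraries. The fits were tested on simulated data. The position annotation was GENCODE M21. One listed gene, and what needs it, is not reported here, so that list counts are of the other genes. The 4 receptors and the lists were chosen with earlier results of these data known. Named genes are the 4 receptors, their relatives, called list members, the tested neighbours and the 3 genes of the most like pattern. Genes outside these, and uncalled list members, were named after their values were seen. The p-values of the edgeR and DESeq2 fits set a difference against the spread between these samples, estimated with information shared over genes. CPM floors cover counting error only.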

Additional observations from a re-analysis of the deposited data

Results flagged for a closer look

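The genotype difference of Thra was not the same at both times of day. It was -1.26 on the log2 scale at ZT8 and -0.49 at ZT20, and the interaction term of the edgeR fit gave a change of 0.78 (SE 0.196, edgeR adjusted p = 0.0285, against 5.88% of all genes called). All 3 mutant livers lay below all 3 WT livers at both times. The adjusted p of this change ranged from 0.00535 to 0.089 over 18 alternatives and passed the threshold in 10 of them.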

How the results depend on the processing

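Over 19 alternatives, the calls of Nr1d1, Nr1d2 and Rora between the time points in both genotypes, of Thra at ZT8 and of Thra between the time points in Rev-erbα-/- did not change. The call of Nr1d2 at ZT20 remained in 5 of 19. The cause of the changes given here was not tested. With DESeq2, Thra at ZT20 passed (-0.49), as did the change between times of Nr1d1 (0.94) and Nr1d2 (1.06), which made 2 of the 4 genes called at ZT20 and 3 for the change. Of the 23189 genes in that fit, DESeq2 called 679 at ZT20 and 1086 for the change. With no filter, Nr1d2 at ZT20 was lost (1.00, adjusted p = 0.0947) and Thra passed (-0.48). With only the 6 samples compared, Nr1d2 at ZT20 was lost (1.00, adjusted p = 0.157), leaving 0 of 4 called, and 769 genes were called at ZT8 in place of 1224. With the replicate number as a block, Nr1d2 at ZT20 was lost (0.97, adjusted p = 0.0822), leaving 0 of 4. The labels do not say that numbers mark shared animals or days, and same-numbered samples deviated together with a mean correlation of -0.0144 over 18 pairs, 0 of them above 0.1, so the numbers were not taken as pairs.

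Without the 2 WT livers at ZT8 with high acute phase levels, an alternative chosen after seeing the data, Nr1d1 passed at ZT8 (-0.85) and for the change (1.31), Nr1d2 and Rora at ZT8 turned to 0.0615 and 0.0198, the change of Rora turned to -0.0756, and Nr1d2 at ZT20 (1.00) and the change of Thra (0.88) were lost. This left 2 of 4 called at ZT8 and 0 at ZT20, with 346 genes called at ZT8, 493 for the change and 1795 between times in WT.

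Leaving out each library in turn gave log2 differences at ZT8 of -0.65 to -0.26 for Nr1d1 and -0.16 to 0.0081 for Nr1d2. At ZT20 they were 0.66 to 1.19 for Nr1d2, -0.18 to 0.0312 for Rora and -0.58 to -0.34 for Thra. The changes were 0.73 to 1.12 for Nr1d1, 0.73 to 1.25 for Nr1d2, -0.0631 to 0.14 for Rora and 0.68 to 0.94 for Thra. Of the 4 genes, 1 to 2 were called at ZT8, 0 to 1 at ZT20 and 0 to 2 for the change. Genes called numbered 542 to 1811 at ZT8, 239 to 656 at ZT20, 493 to 1260 for the change and 1566 to 2847 between times in Rev-erbα-/-. With bases shared between genes kept in the length, the REV-ERB sum in Rev-erbα-/- at ZT8 was 47.8 CPM per kb. Of the other differences of the 4 genes, 336 kept sign and call. Nr1d1 at ZT20 rests on 42 to 85 reads per library, which limits its precision.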
